A study of Mus musculus with 9 samples.

Results

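The subject of this section is the gene expression of the wild-type tibialis anterior, the fast-contracting muscle at the front of the mouse shin. Its members are the 3 wild-type libraries, numbered WT 1, WT 3 and WT 4 as in the labels, out of 9 libraries in the series. They were chosen by their genotype label alone, and no library of another genotype entered any value below except through the authors' scaling factors, which were equal to those computed from all 9 libraries. Each library came from the left muscle of one 13-month-old male mouse, so the spread given is between animals. The study as a whole compares wild-type mice with mice lacking or mutated in Svil, the gene of the actin- and myosin-binding protein supervillin. The strain background of the wild-type mice was not given in the sources used here, and all libraries carry the same batch label. RNA was copied from its poly(A) tail into full-length cDNA, fragmented and sequenced without strand information or molecular identifiers. The deposited values are normalized counts, meaning reads per gene divided by a factor for each library. The reads behind them were recovered exactly and came to 36234428 in WT 1, 38510865 in WT 3 and 38680363 in WT 4. With 1 group there is no comparison to test, and an exact sign-flip permutation test over 3 libraries could not go below a two-sided p of 0.25. Values are therefore given per library or as mean ± SD (n = 3 mice).

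A muscle fibre shortens when myosin of the thick filament pulls on actin of the thin filament, after calcium released from the sarcoplasmic reticulum has bound troponin and moved tropomyosin aside. Fast and slow fibres build this machinery from different members of the same gene families, and fast fibres of the glycolytic kind make most of their ATP from glycogen and creatine phosphate. Oxidative fibres hold more mitochondria, myoglobin and enzymes of fatty acid breakdown. The tibialis anterior of the mouse is known as a fast, mainly glycolytic muscle with an oxidative minority of fibres.

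The labelled tissue was checked against defining markers. The 10 genes listed as markers of skeletal muscle fibres took 20.5% ± 0.96 of all reads. Of 16 genes listed as controls from other tissues, 11 had no read in any of the 3 libraries, among them those for keratin 5 and transthyretin. A count of 0 in a library allows up to 3 reads, which is between 3.04 and 3.28 normalized counts here; that limit covers counting error only. The controls that were seen included Krt10, at 127, 176 and 106 normalized counts in WT 1, WT 3 and WT 4. Another was the cardiac myosin gene Myh6, at 166, 188 and 353, which also stands in the list of muscle spindle markers.

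The transcriptome was concentrated in few genes. Some read was assigned to 23252 genes, of which 16203 had a read in all 3 libraries, 14654 had a mean normalized count of at least 10 and 434 had one of at least 10000. The gene with the most reads on average, Acta1, took 5.08% ± 0.13 of them, the first 10 took 25.1% ± 0.50 and the first 100 took 51.2% ± 0.37. Altogether 88 genes held 50% of the reads, 945 held 75% and 8902 held 99%. Single libraries needed between 84 and 91 genes to reach 50%. Protein-coding genes took 96.7% ± 0.14 of the reads, long intergenic RNAs 0.580% ± 0.025 and processed pseudogenes 0.462% ± 0.019. Of the chromosomes, chromosome 7 took 16.0% ± 0.41 and chromosome 11 took 12.5% ± 0.26. Chromosome 7 carries Atp2a1, Aldoa, Tnnt3 and Tnni2, and chromosome 11 carries Myh4.

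The genes with the most reads encode actin and myosin. Acta1 encodes the alpha-actin of skeletal muscle (chr8:123891769-123894751, minus strand, GRCm38) and had 1969095, 2033009 and 1994907 normalized counts in WT 1, WT 3 and WT 4. Its 3 values lay close together, with a coefficient of variation of 1.61%. Myh4 encodes the myosin heavy chain of type IIB fibres, the fastest type (chr11:67238029-67260446, plus strand, GRCm38), and had 2068885, 2048132 and 1777797. WT 4 was the low library for Myh4, which lay above Acta1 by reads in WT 1 and WT 3 and below it in WT 4. Atp2a1, the calcium pump of the sarcoplasmic reticulum in fast fibres (SERCA1), followed at 1430058, 1448711 and 1335709.9, and WT 4 was again the lowest.

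Reads scale with transcript length, so levels of different genes were compared per kilobase of their annotated exons, scaled to 1000000 per library and called length-corrected levels here. On this scale Acta1 stood alone at 84780.1 ± 2298, above Tnnt3 at 31488 ± 1602 and Atp2a1 at 26332 ± 1590.0. Tnnt3 encodes fast troponin T, which ties troponin to tropomyosin. Myh4 fell from rank 2 by mean reads to rank 8 by mean length-corrected level, at 21296 ± 2108, since its exons span 6016 bases against 1536 for Acta1. The length-corrected level of Acta1 was 4.0 ± 0.35 times that of Myh4. The first 10 genes took 29.7% ± 0.39 of the length-corrected signal, and 35 genes held 50% of it.

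**Figure D1:**
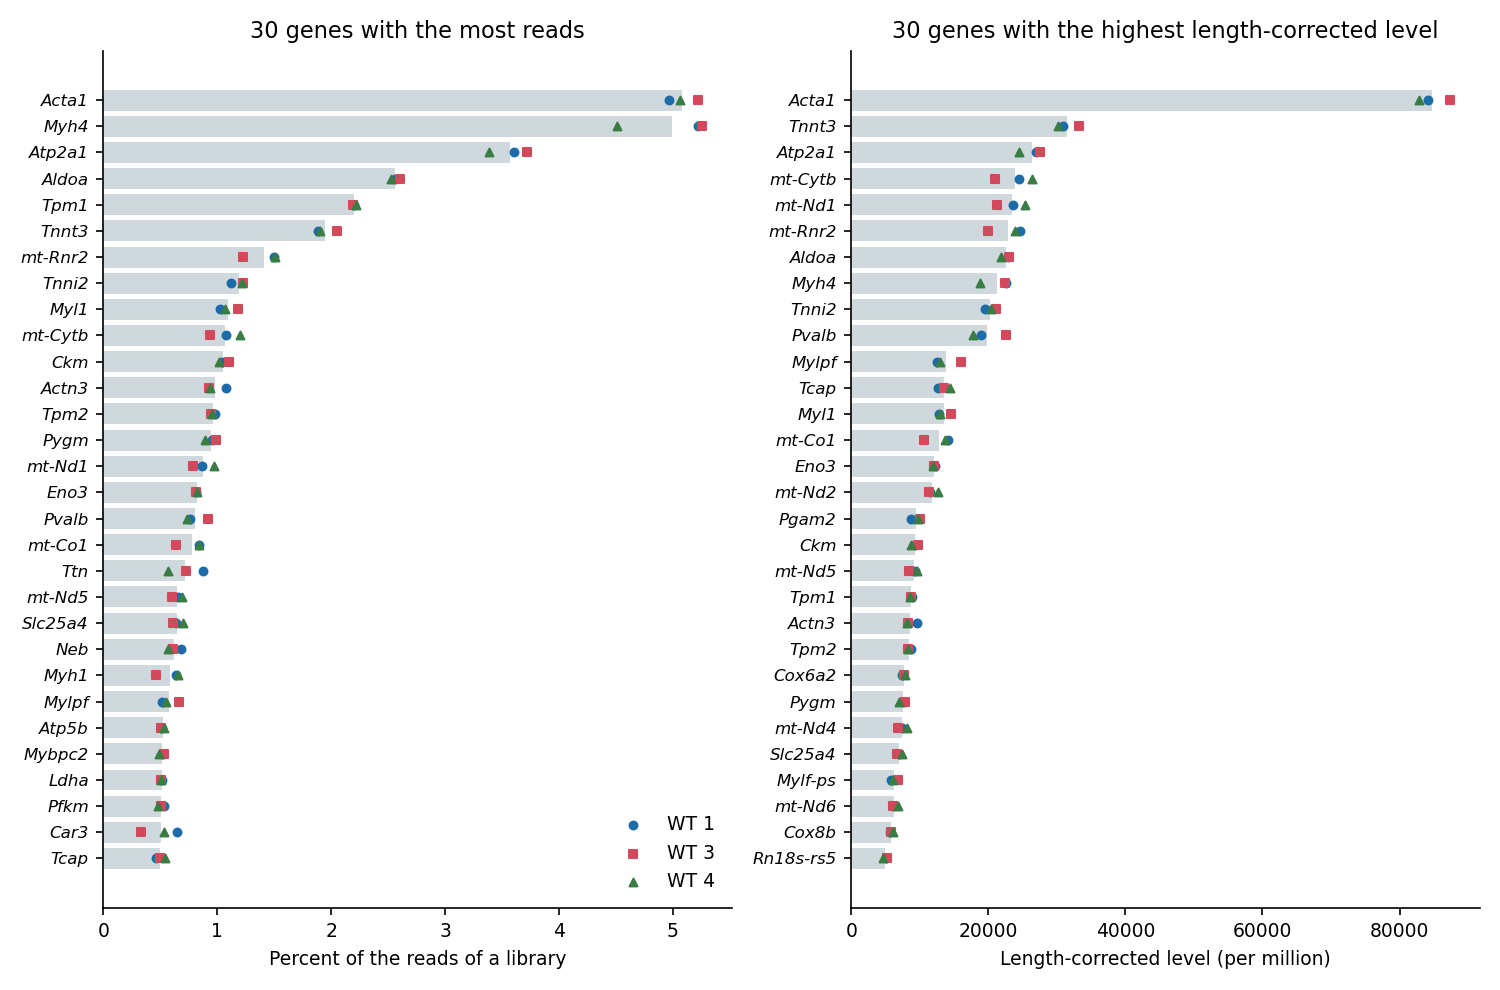
The 30 genes with the most reads (left, percent of the reads of a library) and the 30 with the highest length-corrected level (right); bars are means of 3 libraries and symbols are single libraries. By the mean Acta1 leads on both scales, although Myh4 has more reads in WT 1 and WT 3; Myh4 drops from the second to the eighth place once length is corrected for.

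The promoters of 3 of these genes are printed because an E-box motif recurred in the promoters of the most abundant genes. The E-box CAGCTG is the site that muscle basic helix-loop-helix factors such as MyoD and myogenin bind, and TATAAA is the core of the TATA box. The windows run from 250 bases before to 50 bases after the RefSeq start site (GRCm38.p6), 5′ to 3′ on the strand of the gene, and capitals mark the letters CAGCTG and TATAAA wherever they occur.
Acta1, chr8:123894726-123895025, minus strand: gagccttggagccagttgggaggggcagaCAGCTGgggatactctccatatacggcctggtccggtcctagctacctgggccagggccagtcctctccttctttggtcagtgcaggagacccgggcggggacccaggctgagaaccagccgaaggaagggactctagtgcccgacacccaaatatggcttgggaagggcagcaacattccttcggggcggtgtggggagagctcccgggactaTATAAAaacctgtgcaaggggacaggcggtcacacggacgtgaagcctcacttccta
Myh4, chr11:67237562-67237861, plus strand: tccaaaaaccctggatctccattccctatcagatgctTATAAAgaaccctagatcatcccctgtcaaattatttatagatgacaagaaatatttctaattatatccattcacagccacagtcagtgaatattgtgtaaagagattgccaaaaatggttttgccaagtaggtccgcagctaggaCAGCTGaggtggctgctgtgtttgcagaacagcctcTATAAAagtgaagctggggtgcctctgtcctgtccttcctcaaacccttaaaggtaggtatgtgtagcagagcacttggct
Mylpf, chr7:127211358-127211657, plus strand: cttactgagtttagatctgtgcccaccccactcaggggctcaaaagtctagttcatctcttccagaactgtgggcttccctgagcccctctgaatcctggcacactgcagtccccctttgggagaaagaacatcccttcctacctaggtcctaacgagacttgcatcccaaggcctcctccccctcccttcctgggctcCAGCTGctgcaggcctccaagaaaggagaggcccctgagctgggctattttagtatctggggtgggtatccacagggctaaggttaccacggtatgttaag
In Acta1 CAGCTG began 221 bases and TATAAA 7 bases before the RefSeq start. In Myh4 TATAAA began 31 bases and CAGCTG 67 bases before it, with another TATAAA at 213 bases. In Mylpf CAGCTG began 51 bases before the start and TATAAA was not in the window. CAGCTG reads the same on both strands and was in at least one window of 17 of the 25 nuclear protein-coding genes with the highest length-corrected level that the RefSeq table holds, or 68.0%. The share was 42.0% for the first 50, 29.0% for the first 100 and 17.9% for the first 1000, against 18.6% of the 11771 nuclear protein-coding genes detected in these libraries and 18.3% of all 27025 genes with a window. TATAAA, searched on the gene's strand only, was in 12.0% of the first 25, in 6.15% of the detected nuclear protein-coding genes and in 9.77% of all genes with a window. These are matches of letters, counted without a test, and genes with several start sites were counted once if any window matched. Of the 30 most abundant nuclear genes, 7 had no window in the table, namely Tnnt3, Tnni2, Tcap, Actn3, Cox6a2, Car3 and Myoz1.

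Sorted by function, 17 lists of genes together held 58.3% ± 0.16 of the reads. The thin filament took 12.4% ± 0.20, the thick filament and M-band 9.35% ± 0.56, and calcium handling and excitation 5.95% ± 0.32. Of the lists for energy supply, glycolysis and glycogen took the largest share of reads at 7.29% ± 0.12, followed by the nuclear genes of the respiratory chain at 5.70% ± 0.31 and the protein genes of the mitochondrial genome at 4.38% ± 0.46. By length-corrected level the order of these lists was the reverse, at 9.51% for the mitochondrial protein genes, 8.92% for the nuclear respiratory genes and 7.05% for glycolysis and glycogen. Several mitochondrial protein genes had low counts and share sequence with annotated nuclear copies, as described below. The part of read assignment in the mitochondrial share, and so in either order, was not tested. By reads, the Z-disc and desmin network took 3.75% ± 0.14, the citric acid cycle with pyruvate oxidation 2.03% ± 0.084 and fatty acid uptake and oxidation 0.752% ± 0.11. All 80 cytosolic ribosomal protein genes together took 0.523% ± 0.018 of the reads. Processed pseudogenes took 0.462% ± 0.019, and whether any of those reads came from ribosomal protein transcripts was not tested. The ubiquitin and proteasome list took 0.909% ± 0.0065 and the dystrophin complex and costamere list 0.351% ± 0.0040.

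**Figure D2:**
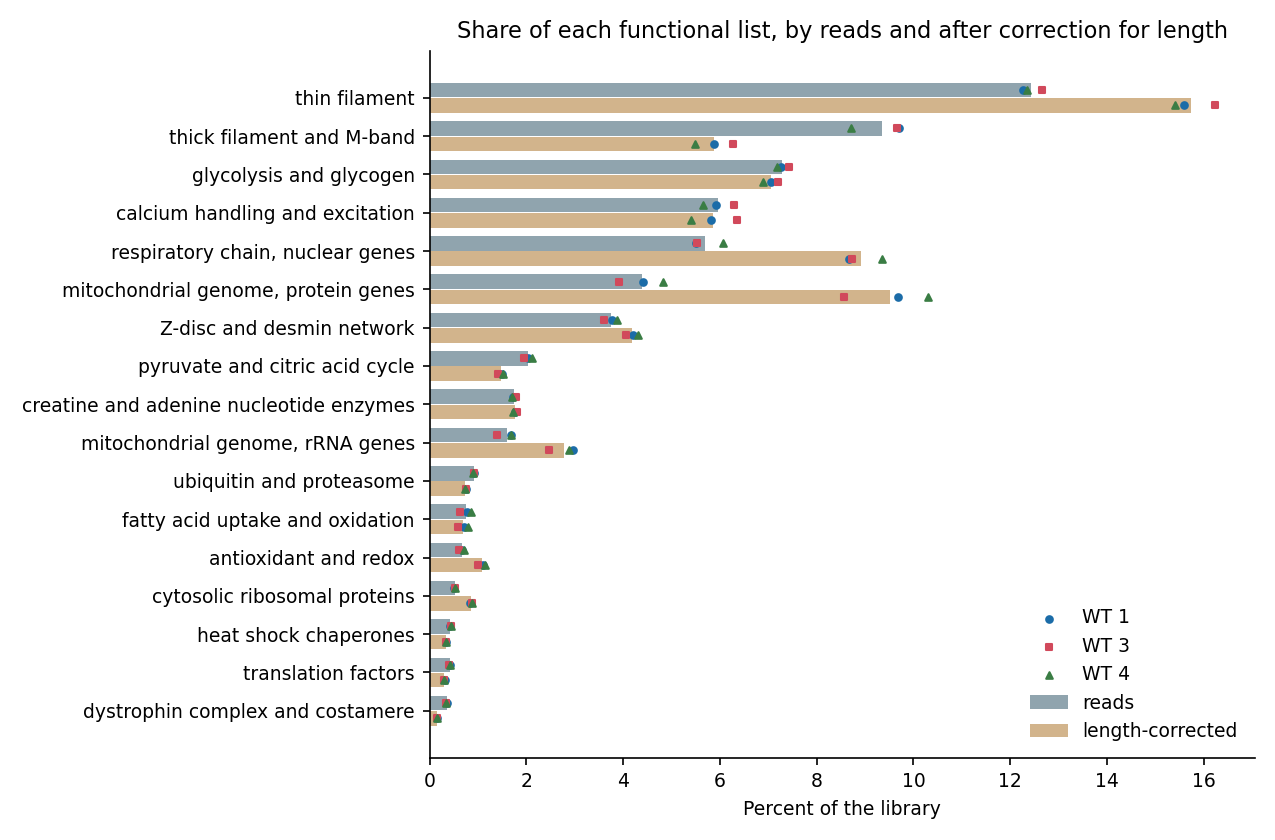
Share of 17 functional lists in percent of the library, by reads (grey) and by length-corrected level (tan); bars are means of 3 libraries and symbols are single libraries. After length correction the thin filament rises to 15.7% and the thick filament falls to 5.88%.

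Fast isoforms held nearly all of the myosin heavy chain total. Among the myosin heavy chains Myh4 made up 88.6% ± 2.5 of the length-corrected family total, Myh1 (type IIX) 9.88% ± 2.2 and Myh2 (type IIA) 1.47% ± 0.34. The share of Myh4 was 88.4%, 91.2% and 86.3% in WT 1, WT 3 and WT 4, and that of Myh1 was 10.2%, 7.59% and 11.9%. WT 3 was the most and WT 4 the least dominated by Myh4, but the order Myh4, Myh1, Myh2 was the same in every library without overlap. Myh7, the heavy chain of slow type I fibres, had 79.9, 333 and 82.5 normalized counts, so WT 3 stood well above the other 2 libraries while all remained minor. Myh8, the perinatal heavy chain, had 709, 1769.7 and 548, also highest in WT 3.

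The light chains followed the heavy chains. Myl1, the fast essential light chain, made up 98.5% ± 0.80 of its family, and Mylpf, the fast regulatory light chain, 99.91% ± 0.047. Myl3, the slow essential light chain that is also in the ventricle, had 7240.2, 2514 and 8793 normalized counts, and WT 3 was low. Mylpf and Myl1, which sit on the same myosin head, had length-corrected levels in a ratio of 1.02 ± 0.067. The ratio of Mylpf to Myh4 was 0.653 ± 0.084. Mybpc2, fast myosin binding protein C, made up 67.0% ± 0.27 of its family and Mybpc1, the slow form, 33.0% ± 0.27, with an SD of under 1 percentage point for both. That SD covers the libraries only, since Mybpc2 made up 61.8% by reads and 56.5% with the median transcript length. Mybpc3, the cardiac form, had no read in any library. The length-corrected level of Mybpc1, 1791 ± 91.4, lay well above that of another slow-type gene, Myl3, at 196 ± 102. Myom2 and Myom1, the cross-linkers of the M-band, stood at 60.4% ± 2.7 and 38.3% ± 2.8 of the myomesins. With the median transcript length these shares were 80.6% and 19.1%. Titin, the elastic filament that runs from the Z-disc to the M-band, had 346386, 280803 and 222902 normalized counts. Ttn and Neb, which encodes nebulin, the ruler of the thin filament, at 269162, 239296 and 221748, were both highest in WT 1 and lowest in WT 4.

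Thin filament genes were as one-sided. Acta1 made up 99.36% ± 0.056 of the actins, and the cardiac Actc1 only 0.103% ± 0.045, at 1057, 2853 and 2659 normalized counts, with WT 1 low. Tnni2, fast troponin I, made up 99.98% ± 0.0059 of its family and Tnnt3 99.95% ± 0.017 of the troponins T. Slow Tnnt1 had 260.3, 630.4 and 424 normalized counts and slow Tnni1 had 214, 326 and 183, both highest in WT 3. Tropomyosin was shared evenly, with Tpm1 at 50.6% ± 0.51 and Tpm2 at 49.1% ± 0.54 of the length-corrected total. By reads alone Tpm1 was the larger at 69.5%, so the even split depends on the length given to Tpm1, whose annotated exons span many splice forms. Among the leiomodins, which start actin filaments, Lmod3 stood at 49.1%, 62.6% and 58.1% and Lmod2 at 49.8%, 35.7% and 40.7% in WT 1, WT 3 and WT 4. These overlap, and WT 1 had slightly more Lmod2 than Lmod3 per length, but more Lmod3 by reads.

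Troponin C stood far below its partners. The troponin complex holds one molecule each of troponin C, I and T, and the fast members of the other subunits stood at length-corrected levels of 20314 ± 812 for Tnni2 and 31488 ± 1602 for Tnnt3. Tnnc2, fast troponin C (chr2:164777161-164779967, minus strand, GRCm38), had 4812, 5386 and 4966 normalized counts and a length-corrected level of 412 ± 28.2. That is 0.0203 ± 0.00084 times the level of Tnni2, and the ratio was 0.0203, 0.0211 and 0.0194 in WT 1, WT 3 and WT 4. In the GENCODE annotation 74.0% of the exon bases of Tnnc2 lie under exons of Ube2c on the opposite strand, and reads of unstranded libraries cannot be told apart there. Ube2c, a ubiquitin-conjugating enzyme of dividing cells, had 35.0, 32.4 and 40.8. Which annotation the submitters counted with was not given in the sources used here, so the part of the overlap in the low value was not tested. Over all genes with a mean of at least 100 and a gene model, 87 of 10233 (0.850%) had 50% or more of their exon bases under another gene.

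At the Z-disc, which anchors the thin filaments, Actn3 made up 91.4% ± 1.1 of the alpha-actinins and Actn2 8.30% ± 1.1. Actn3 is the form of fast fibres. Tcap, the titin cap, was the most abundant Z-disc gene at a length-corrected level of 13511 ± 872, followed by Actn3 at 8637 ± 852 and Myoz1, a calcineurin-binding protein of fast fibres, at 3768 ± 168. Myoz1 made up 98.4% ± 0.082 of the calsarcins. A pair of stretch-sensing genes varied far more than the structural ones. Ankrd2 had 5572, 2418 and 6483 normalized counts and Csrp3, muscle LIM protein, had 3028, 1683 and 4495, with WT 3 lowest in both. Ankrd1, a relative of Ankrd2, ran the other way at 254, 821 and 517.

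Calcium handling genes were of the fast type. Atp2a1 made up 99.92% ± 0.0030 of the SERCA pumps, and Atp2a2, the slow and cardiac pump, 0.0528% ± 0.0056. Pvalb encodes parvalbumin, the soluble calcium buffer of fast fibres, and had 301501, 356623 and 289270.4 normalized counts and a length-corrected level of 19781 ± 2527. WT 3 was the highest of the 3. Casq1, the calcium store protein of the reticulum, made up 98.3% ± 0.51 of the calsequestrins, and Ryr1, the release channel, 99.99% ± 0.012 of its family. Atp2a1 stood at 7.14 ± 0.61 times the length-corrected level of Casq1. Of the small peptides that restrain the pump, Mrln (myoregulin) made up 90.8% ± 2.1 and Sln (sarcolipin) 8.46% ± 2.5; Sln had 133, 302 and 202 normalized counts.

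**Figure D3:**
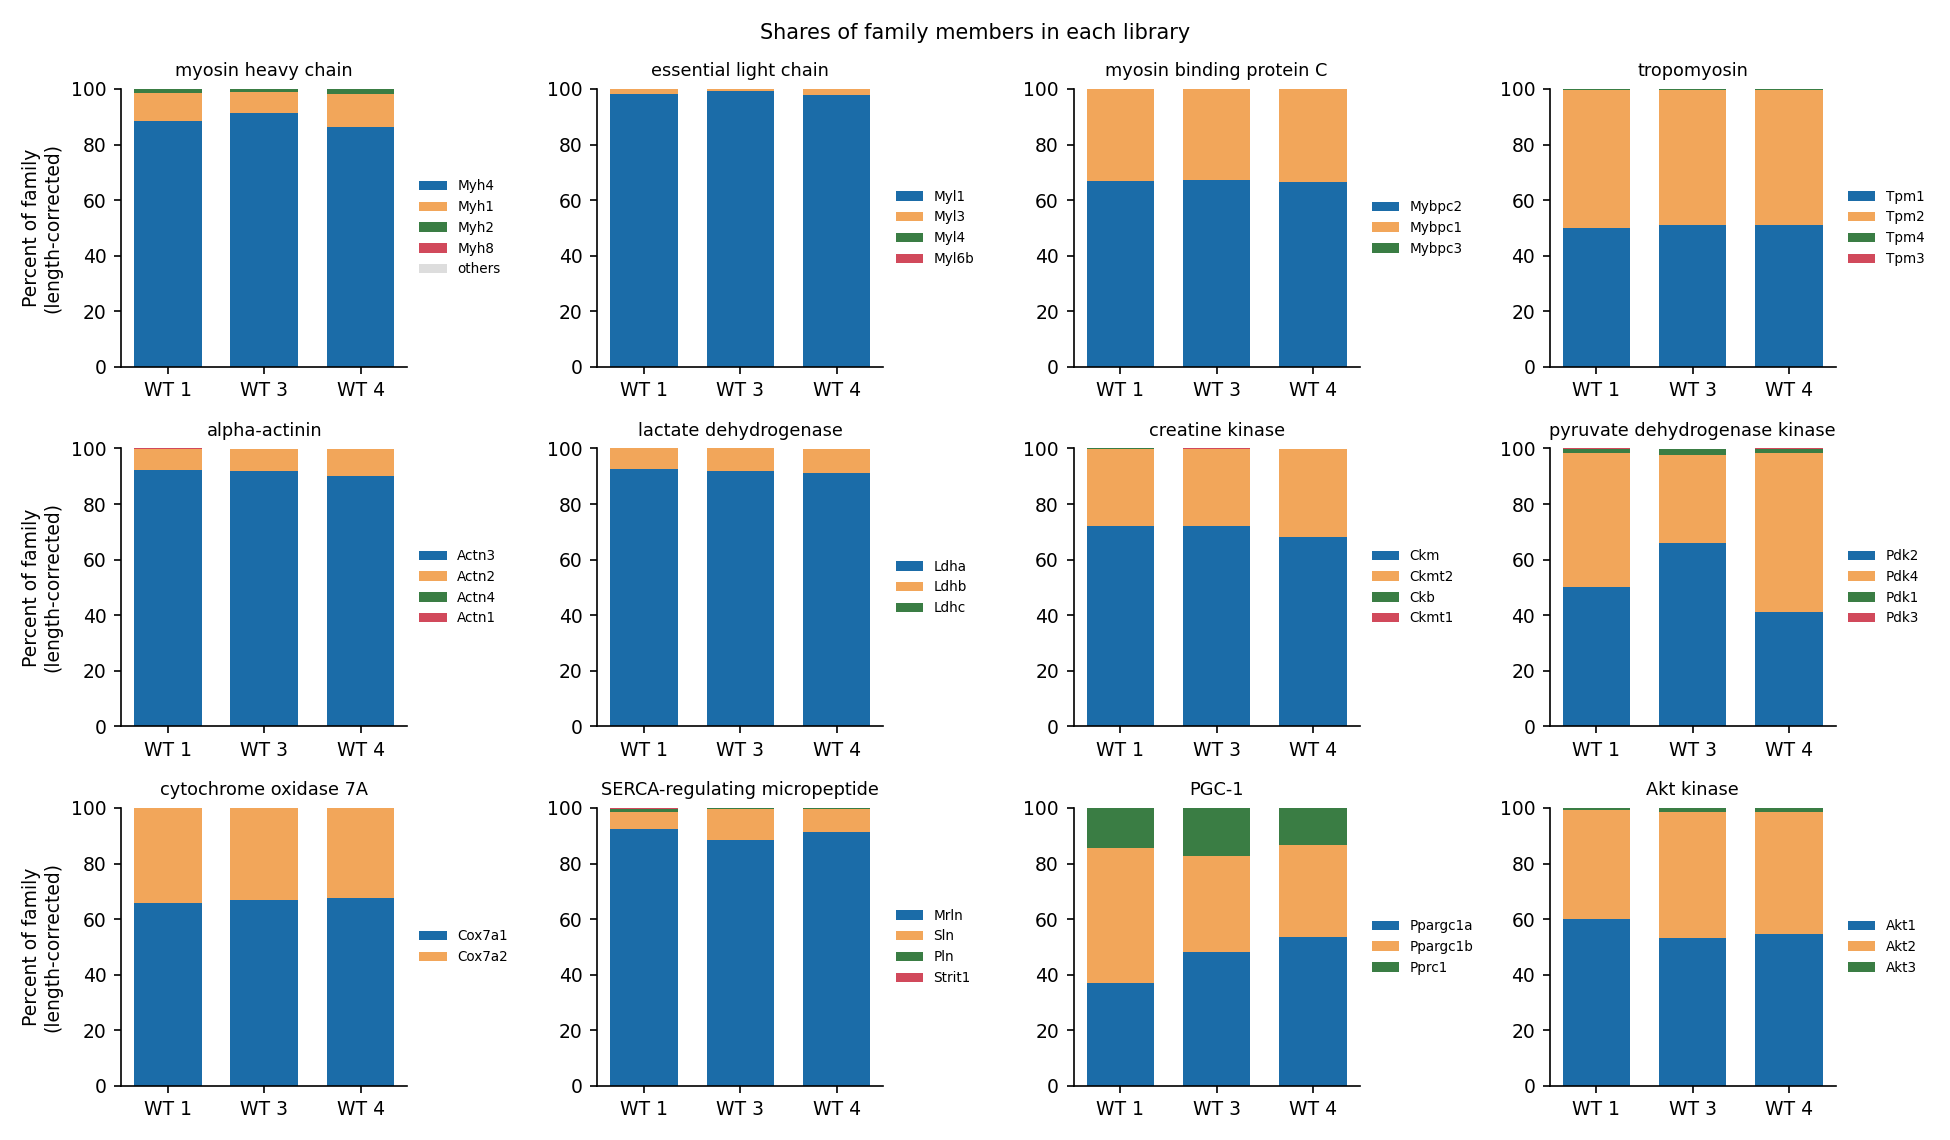
Shares of the members of 12 gene families in each wild-type library, in percent of the summed length-corrected level of the family; at most 4 members are named in each panel. Fast or muscle-type members fill most bars, and Pdk2 and Pdk4 change order between WT 3 and WT 4. The change of order of Ppargc1a and Ppargc1b is present on the length-corrected scale and not by reads.

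Across all 63 families with 188 members, the leading member held at least 90% in 40 families and at least 50% in 60. Neighbours in the order kept it in all 3 libraries in 113 of 125 pairs, and in 109 pairs the values of the 3 libraries did not overlap. The order was set by the mean of these same libraries, so part of this agreement is built in. Pairs whose lower member had no read were counted too. No read was seen for 7 members, among them Mybpc3, Pklr, Ldhc, Fbp1, Cox8c and Irs4.

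Glycogen breakdown and glycolysis were carried by muscle-type isoenzymes. Pygm, muscle glycogen phosphorylase, made up 99.95% ± 0.010 of its family, Pfkm 99.83% ± 0.0035 of the phosphofructokinases, Pgam2 99.93% ± 0.0035 of the phosphoglycerate mutases and Eno3 99.76% ± 0.021 of the enolases. Aldoa, aldolase A, had the most reads of the enzymes of this pathway named here, with 1014013, 1015739 and 994804 normalized counts. Along the pathway the length-corrected levels were 7522 ± 499.5 for Pygm, 3871 ± 239 for Pfkm, 22563 ± 656 for Aldoa, 12059.9 ± 123 for Eno3 and 1611 ± 58.5 for Pkm. The first step, Hk2, which phosphorylates glucose taken up from blood, stood at only 109 ± 0.61. Hk2 made up 86.8%, 91.4% and 84.1% of the hexokinases in WT 1, WT 3 and WT 4. Gapdh and Pgk1 were low for their place in the pathway, at 268 ± 10.4 and 331 ± 24.9. Of the 50-base stretches of Gapdh 25.1% occurred in another annotated gene, spread over 223 genes, and of those of Pgk1 53.9% did. How the counting treated reads that fit several genes was not given in the sources used here, and its part was not tested.

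Lactate and creatine genes gave mixed ratios that were close between libraries, though some depended on the gene model. Ldha, the form that favours lactate production, made up 91.9% ± 0.78 of lactate dehydrogenase and Ldhb 8.13% ± 0.78. Slc16a3, a lactate exporter, made up 77.8% ± 0.92 of the lactate transporters and Slc16a1 22.2% ± 0.92. With the median transcript length Slc16a3 made up 95.0%. Ckm, cytosolic creatine kinase, made up 70.8% ± 2.2 of its family and Ckmt2, the mitochondrial form, 29.1% ± 2.2, a ratio of 2.44 ± 0.25. That ratio was 4.77 by reads and 5.74 with the median transcript length. Slc2a4, the insulin-responsive glucose transporter GLUT4, made up 96.6% ± 0.41 of the transporters listed and had 28896, 26268 and 29029 normalized counts. Insulin signalling genes were low by comparison. Irs2 and Irs1 stood at 74.9% ± 1.3 and 25.1% ± 1.3, and their length-corrected levels were 11.0 ± 1.0 and 3.72 ± 0.58. Akt1 and Akt2 stood at 56.0% ± 3.6 and 42.8% ± 3.1, and by reads alone the order was reversed, with Akt2 at 56.4%. The AMP-activated kinase was built mainly from Prkaa2 at 90.7% ± 1.7, Prkab2 at 96.7% ± 0.44 and Prkag3 at 85.0% ± 3.4 of their families.

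Pyruvate dehydrogenase kinase was an abundant family whose order changed between animals. These kinases switch off the entry of pyruvate into the citric acid cycle, and Pdk4 is known to rise on fasting and with fatty acid use. Pdk4 had 39432, 17331 and 52686 normalized counts in WT 1, WT 3 and WT 4, while Pdk2 had 36748, 32717 and 34004. WT 3 was the low library for Pdk4, and Pdk2 hardly moved. Pdk4 made up 48.3%, 31.5% and 57.4% of the family, so it lay below Pdk2 in WT 3, above it in WT 4 and close to it in WT 1, where Pdk2 held 49.96%. By reads Pdk4 was the higher in WT 1, so the order there depends on the length correction.

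The nuclear genes of the respiratory chain varied widely within complexes and included muscle-type subunits. The 37 genes of complex I (NADH dehydrogenase) had a median length-corrected level of 627, the 9 of complex III 1058, the 16 of complex IV (cytochrome oxidase) 661 and the 15 of ATP synthase 878. Complex IV had the widest range, from 0.409 for the testis form Cox6b2 to 7669.7 ± 212 for Cox6a2. Cox6a2, Cox8b and Cox7a1 are the heart and muscle forms, and they made up 98.1% ± 0.028, 96.8% ± 0.22 and 66.8% ± 0.87 of their families. By reads Cox7a1 made up 53.2%, so the size of its lead depends on the length correction. Slc25a4, the ADP/ATP carrier of muscle, made up 98.6% ± 0.021 of its family at 251231, 236530.4 and 274416 normalized counts.

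Genes of the mitochondrial genome split into a high and a low set. Of the 13 protein genes, 7 were high, from 50101 mean normalized counts for mt-Nd6 to 421073 for mt-Cytb. The other 6 were low, from 7.63 for mt-Nd4l to 1199 for mt-Co3, although mitochondrial transcripts are cut from long shared precursors. mt-Co2, subunit 2 of cytochrome oxidase, had 1059, 933 and 1114 in WT 1, WT 3 and WT 4, and mt-Nd1, subunit 1 of complex I, had 343571, 307819 and 381268. The length-corrected level of mt-Co2 was 0.00421 ± 0.00012 times that of mt-Nd1, with no overlap between the genes. Of the 6 low genes, 5 had between 98.0% and 100% of their 50-base stretches in another annotated gene, a nuclear copy of mitochondrial DNA. The high genes had between 0% and 8.19%, apart from mt-Co1 at 51.1% and mt-Nd4 at 62.2%. mt-Atp8 was the exception, low at 17.5, 29.3 and 110.0 with 0% of its stretches in another annotated gene and 21.1% of its bases under mt-Atp6. Only annotated transcripts were searched, so a copy without annotation would have been missed. For each of the 5 low genes with shared stretches, the main copy held more reads than the gene, though far fewer than any high gene. Gm28661, which carries 99.5% of the stretches of mt-Co2, had a mean normalized count of 2468 against 1035 for mt-Co2. Gm28437, which carries 99.9% of those of mt-Co3, had 3786 against 1199 for mt-Co3. The summed share of the mitochondrial genome, 5.98% ± 0.61 of the reads including ribosomal and transfer RNA genes, was taken up mainly by those 7 genes and mt-Rnr2, the large ribosomal RNA, at 1.41% ± 0.16.

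The middle 60 bases of one gene from each set are printed to show the difference, in GRCm38 coordinates on the plus strand, with capitals unused.
mt-Co2, chrM:7325-7384: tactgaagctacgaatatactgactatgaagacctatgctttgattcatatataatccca
mt-Nd1, chrM:3199-3258: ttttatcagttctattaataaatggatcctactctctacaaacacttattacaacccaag
The stretch of mt-Co2 was found unchanged in 2 other annotated transcripts, those of Gm28661 and Gm13341. The stretch of mt-Nd1 was found in 0 others.

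**Figure D4:**
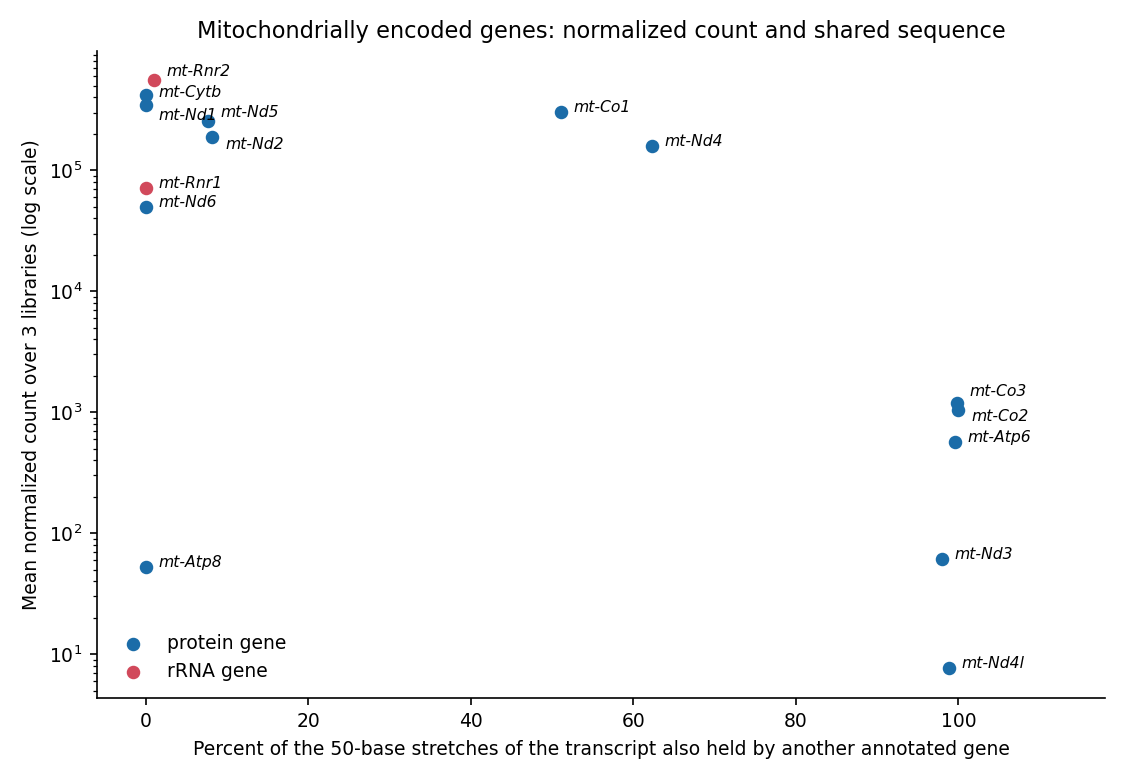
Mean normalized count (log scale) of the 13 protein genes and the ribosomal RNA genes of the mitochondrial genome against the percent of their 50-base stretches that another annotated gene also holds. The 5 genes at 98.0% or more lie at or below 1199 normalized counts, and of the others mt-Atp8 alone lies below mt-Nd6, which is at 50101.

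Fatty acid oxidation was present at lower levels, led by Fabp3, the fatty acid carrier of muscle, at a length-corrected level of 1696 ± 468, and Acadl, long-chain acyl-CoA dehydrogenase, at 840.2 ± 103. Cpt1b, the muscle form of the enzyme that lets long fatty acids into mitochondria, had 71.1, 46.5 and 61.1 normalized counts, and Cpt1a, the liver form, had 456, 355 and 529. Cpt2, which acts just after it, had 6059, 4928 and 6426. The annotated exons of Cpt1b lie for 81.4% under Gm44502 on the same strand, a gene with no read, so reads there could fit either gene and the value is uncertain, as is the order of Cpt1a and Cpt1b within the families counted above. Acacb, the muscle acetyl-CoA carboxylase, made up 99.43% ± 0.11 of its family. Ppargc1a and Ppargc1b, the coactivators PGC-1 alpha and beta that drive mitochondrial genes, stood at 36.9%, 48.0% and 53.4% and 48.7%, 34.8% and 33.3% in WT 1, WT 3 and WT 4, and changed order in WT 1. By reads Ppargc1a was the higher in every library, so that change of order rests on the length correction.

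Muscle forms of general genes led as well. Rpl3l, a striated-muscle form of ribosomal protein L3, made up 98.6% ± 0.19 of that pair and was the most abundant ribosomal protein gene at 698 ± 30.8. Eef1a2, the elongation factor of muscle and neurons, made up 77.9% ± 1.6 against 22.1% ± 1.6 for Eef1a1. With the median transcript length the share of Eef1a2 was only 54.6%, so the size of its lead depends on the gene model. The part of read assignment in the lower values of Rpl3, Eef1a1 and other ribosomal protein genes was not tested. Chrne, the adult acetylcholine receptor subunit of the neuromuscular junction, had 479, 759.9 and 578 normalized counts, and the fetal subunit Chrng took 0.114% ± 0.14 of the pair. Myod1 had 2028, 1811 and 1651 and Myog 125, 139.6 and 112. Pax7, the marker of satellite cells, had 3.28, 24.3 and 2.04.

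Other cell types left a small trace. The cell lists other than the fibre and control lists together held 1.03% ± 0.12 of the reads, and Car3 alone supplied much of that. The sum includes neuromuscular junction nuclei, at 0.0464% ± 0.0046, and muscle spindle, at 0.0403% ± 0.0032, which are lists of specialised parts of fibres. The median normalized count of the members was 634 for the junction list and 110 for the spindle list. Of the 8 spindle genes 4 had a mean of at least 100, so that share rests on few genes and does not measure spindle content. Car3, carbonic anhydrase 3, stands in the adipocyte list but is also abundant in muscle fibres, and without it the adipocyte list fell from 0.534% ± 0.16 to 0.0302% ± 0.0017. The counts of Car3 were 256878, 127781 and 210853, with WT 3 lowest. Fabp4, a fatty acid binding protein gene at a mean normalized count of 9492, supplied most of what remained in the list. The adipokine gene Adipoq, which defines adipocytes, had 72.2, 139 and 85.6, and Lep, for leptin, had 71.1, 108 and 4.08. Fibro-adipogenic progenitor and fibroblast markers took 0.157% ± 0.037, endothelial markers 0.0818% ± 0.0078 and mural markers 0.0695% ± 0.0031. Lymphocyte markers took 0.0115% ± 0.0020, nearly all of it from Ighm, the immunoglobulin mu chain, at 3751, 4094 and 5316. The B-cell gene Cd79a had 1.09, 0 and 2.04. In bulk RNA, fewer cells of a type and less RNA per cell cannot be told apart.

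The 3 animals differed little for most genes. Over 10337 genes with a mean normalized count of at least 100, the median coefficient of variation (SD as percent of the mean) was 11.1%, and 9705 genes (93.9%) lay within 2-fold between the highest and the lowest library. Spread was smaller at higher levels up to 100000 normalized counts, with a median going from 15.8% for means of 100 to 1000, where counting alone gives 5.45%, to 5.85% for means of 10000 to 100000, where counting gives 0.785%. It was 6.27% for the 40 genes with means of at least 100000. For means of 100 to 1000, 91.1% of genes had a coefficient of variation above the value expected from counting. Counting alone would also put a part of the genes above that value, and this part was not computed. The quietest genes included Pcmt1, a protein repair enzyme, at 7146, 7165 and 7148. Its coefficient of variation, 0.144%, lay below the 1.21% of counting error, and it was picked as one of the lowest among many genes. The most variable named genes were mostly low. Cyp2e1, an oxidizing enzyme known from liver, had 37.2, 247 and 29.5, Cfd, the adipocyte complement factor adipsin, had 110.5, 883 and 198, and Dkk3, a secreted Wnt modulator, had 1162, 4791 and 842. WT 3 was the high library in each of these.

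Gene lists moved together between animals in a few cases. Over all 14654 genes with a mean of at least 10, each library was the highest for about as many genes as the others, at 33.6% for WT 1, 33.7% for WT 3 and 32.7% for WT 4. The shares for which each was the lowest were 33.3%, 34.7% and 32.0%. Against this, WT 4 was the highest for 76 of 83 nuclear respiratory genes, and WT 3 was the lowest for all 32 genes of fatty acid uptake and oxidation. WT 3 was also the lowest for 11 of 12 mitochondrial protein genes, and WT 4 was the highest for 11 of these. The medians were small for the respiratory list, at 0.10 log2 units above the mean in WT 4. For fatty acid genes they ran from -0.23 in WT 3 to 0.14 in WT 4. With library totals set equal instead, WT 4 was the highest for 75 of the 83 respiratory genes and WT 3 the lowest for all 32 fatty acid genes.

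**Figure D5:**
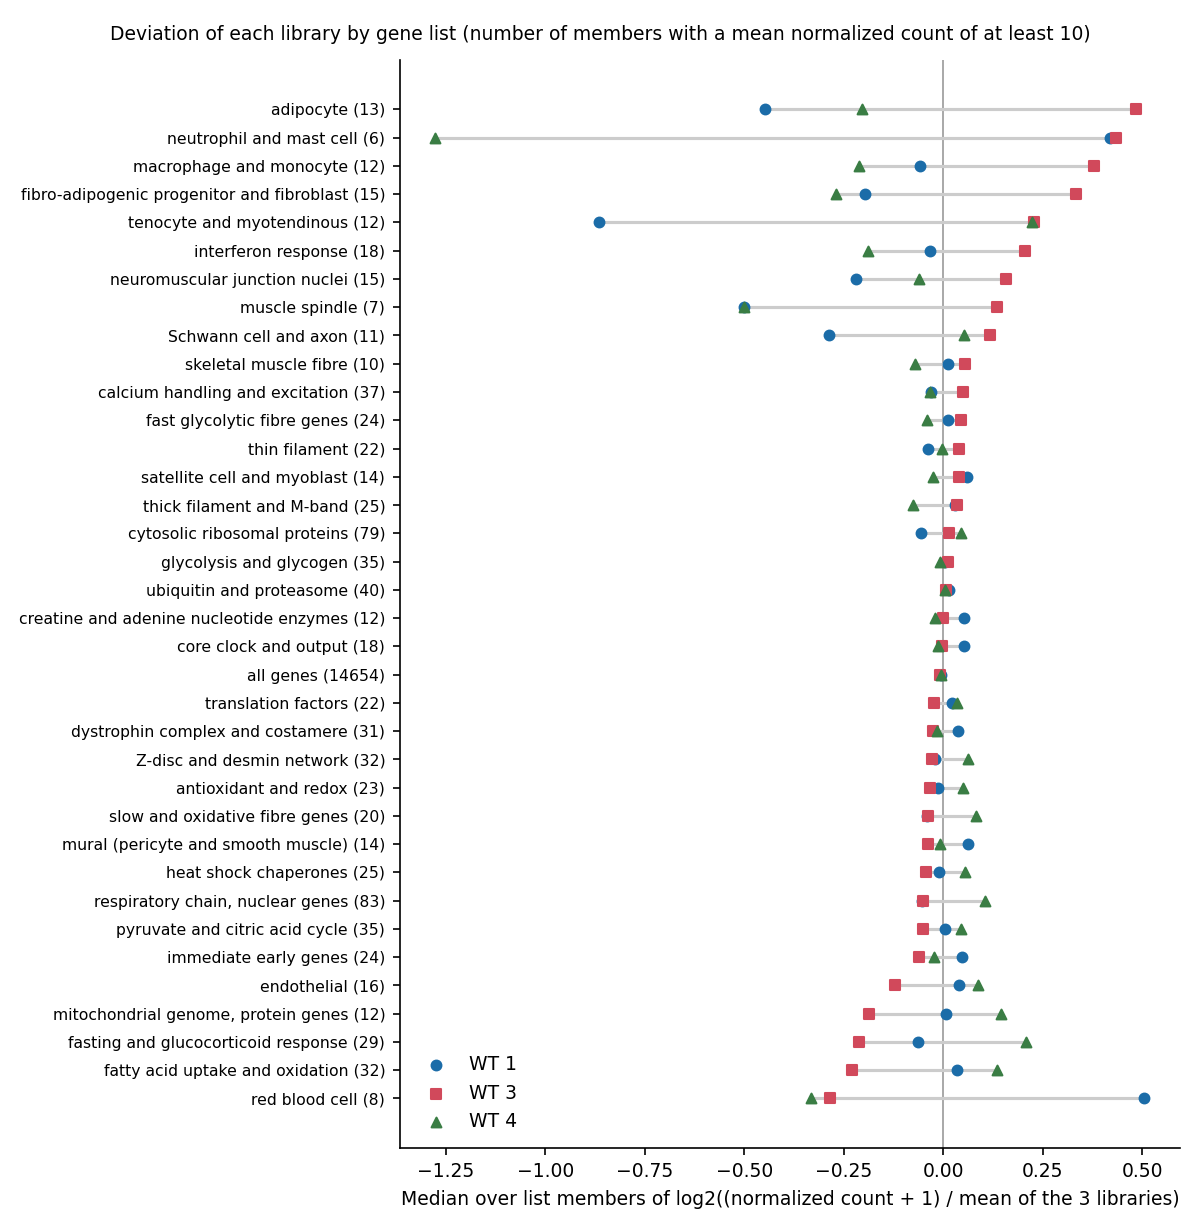
Median over the members of each list of the log2 ratio of a library to the mean of the 3 libraries, after adding 1 to each normalized count; the number of members with a mean of at least 10 is in brackets. WT 3 lies lowest for the fatty acid list and the protein genes of the mitochondrial genome, and highest for fibroblast and adipocyte lists. WT 1 lies lowest for tenocyte markers. For the nuclear respiratory genes WT 1 and WT 3 lie close together, at -0.054 and -0.051.

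Fatty acid genes with the widest spread included Ucp3, a mitochondrial uncoupling protein of muscle, at 11706, 4974 and 12955, and Plin5, a lipid droplet coat protein, at 2192, 1331 and 3728. Both were lowest in WT 3. Slow and oxidative genes did not move as one. Mb, myoglobin, at 95259, 74244 and 107775, Fabp3, at 21401, 15259.8 and 27832, and Casq2, at 3092, 1939.7 and 2718, were lowest in WT 3, as were Myh2 and Myl3. Some slow-type genes were highest in WT 3, namely Myh7, Tnnt1, Tnni1, Tnnc1, at 103, 281 and 213, and Sln. Other slow-type genes did not follow them. Myl3 was lowest in WT 3, Mybpc1 had 127084, 126675 and 119561, and Atp2a2 had 1409, 1414 and 1083. Connective tissue markers moved with the same animal. WT 3 was the highest for 13 of 15 fibroblast and progenitor markers, Col1a2 having 2683, 5874 and 3668, and for 9 of 13 adipocyte markers. The summed share of the adipocyte list without Car3 ranged only from 0.0287% to 0.0320%. Most of that share came from Fabp4, which was lowest in WT 3, at 9509, 8144 and 10822, so its flatness says little about the other markers. WT 1 was the lowest for all 12 tenocyte and myotendinous markers, Fmod having 2634, 6242 and 5119.7 and Tnmd, a tendon membrane protein, 219.9, 439 and 419. WT 1 was also the highest for 7 of 8 red blood cell genes, Hbb-bs having 4203, 2276 and 2299.5. Whether the content of other tissue accounts for any fibre gene difference was not tested.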

How the data were processed

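The series measured poly(A) RNA in 9 libraries of mouse tibialis anterior, of which the 3 wild-type libraries were used. Per the submitters' processing notes, HISAT2, featureCounts and DESeq2 were used with the mm10 genome, and no versions or annotation were given. The deposited values are a signal of normalized counts, meaning that the authors divided the read count of each gene by 1 factor per library. All 9 columns were mapped to samples and 0 were left unmapped. All values were whole multiples of 1 read within 0.001 (100% of values), so reads were recovered, and the factors (0.914, 0.988 and 0.981 for WT 1, WT 3 and WT 4) were equal to the median-of-ratios factors of the whole table. No count model was run, because 1 group allows no comparison.

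Length-corrected levels divide reads by the union of annotated exons (GENCODE M21, GRCm38) in kilobases and scale them to 1000000 per library. Lengths were found for 94.5% of detected genes, which held 99.8% of the reads. cDNA primed at the poly(A) tail may cover the 5′ parts of very long transcripts less, which was not tested. Shared sequence was measured as the percent of 50-base stretches found in transcripts of another gene. Promoters came from RefSeq (GRCm38.p6). Spread was described for means of at least 100 normalized counts and list deviations for means of at least 10, with a pseudocount of 1. The steps were tested on simulated data.

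Named genes were the 30 most abundant on each scale, the members of the families, the 5 highest of each list, and the 25 most and 15 least variable genes; other list or family genes named for their place in a pathway were chosen after their values were seen, as were the genes printed as sequences, Ube2c and the copies of mitochondrial genes. The libraries were taken by their label; the choice to describe these members, and the gene lists and families, were made with earlier results of these data known. Python 3.11 with pandas and numpy was used. A few genes of the lists are not reported here.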

Additional observations from a re-analysis of the deposited data

How the results depend on the processing

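No paired analysis was possible because only 1 genotype was described and nothing was compared. Leaving the mitochondrial genome out of the total raised the share of the first 10 genes to 26.2%. Their length-corrected share was 28.4% with the longest transcript and 22.6% with the median transcript length. Length correction lowered the number of genes that hold 50% to 35, raised the sum of the functional lists to 67.4% and lowered that of the cell type lists to 0.890%. A mean of at least 10 left 14654 genes and one of at least 100 left 10337. The median coefficient of variation was 32.6% with no filter on low values, and genes at 50% or more numbered 186 with the filter at 100, 1859 at 10 and 9554 with none. Leaving out 1 library gave medians from 8.67% to 9.31% and from 201 to 288 such genes, the most without WT 4. Families led by 90% or more numbered from 38 to 40 when a library was left out. Akt2 led Akt1 by reads or median length. Pdk4 led Pdk2 with the median length or without WT 3, at 51.0% and 52.8%. Pprc1 led its family at 52.3% with the median length. Without genes overlapped over 50%, an alternative chosen after seeing the data, troponin C was left with Tnnc1 alone. Shares within families depend on the gene models, and the part of read assignment in low values of genes that share sequence was not tested.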

Other observations

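Of 19 listed genes of the daily clock, whose muscle levels depend on the hour of collection, 18 had a mean normalized count of at least 10. Their median coefficient of variation was 11.6%, against 15.4% over all 14654 genes at that threshold. WT 1 was the highest for 11 of the 18 (61.1%), against 33.6% of all genes at that threshold. Dbp, an output gene of the clock, had 2354, 2417 and 2346 normalized counts in WT 1, WT 3 and WT 4, and Nr1d1, a repressor within it, had 2701, 2482 and 2629. Among immediate early genes, which rise within minutes of handling or contraction, Nr4a1 had 6193, 6412 and 6961 and Jun 5345, 4873 and 5221. Nr4a3 was less even, at 267, 44.5 and 184, with WT 1 highest. Of the atrophy-linked ubiquitin ligases, Trim63 had 15881, 14133 and 14033 and Fbxo32 had 18725, 15167 and 13621, both highest in WT 1, with coefficients of variation of 7.08% and 16.5%.

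Mylf-ps, annotated as a pseudogene of a myosin light chain, was among the 30 highest genes by length-corrected level, at 6294 ± 520.3. It had 37699, 43868 and 40438 normalized counts, and 65% of its 50-base stretches also occur in Myl1. The ratio of its level to that of Myl1 was 0.458, 0.471 and 0.472 in WT 1, WT 3 and WT 4. Whether its reads came from Myl1 transcripts was not tested.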
